A study of Mus musculus with 9 samples.

Results

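Wnt proteins are secreted ligands that bind frizzled receptors and their LRP co-receptors on the surface of a receiving cell. In the canonical branch this stabilises beta-catenin, which enters the nucleus and activates target genes with TCF and LEF factors, while other ligands such as Wnt5a and Wnt11 are best known for signalling without beta-catenin. R-spondins, acting through LGR receptors, keep frizzleds on the cell surface by restraining the ligases Znrf3 and Rnf43, and secreted inhibitors of the SFRP, DKK and WIF families limit the signal. In the developing cochlea the pathway is known for its part in proliferation and in the patterning of the duct floor.

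The genes described here were 43 such Wnt pathway genes, chosen by name and matched by symbol to the 54232 genes counted: 10 ligands, 8 frizzled receptors, 2 LRP co-receptors, 6 secreted inhibitors, 3 R-spondins, 3 LGR receptors, 5 nuclear factors and 6 scaffold and feedback genes. The RNA came from microdissected cochlear ducts of 9 embryos on embryonic day 14.5 (E14.5), with both ducts of an embryo pooled into a single library. The 3 genotypes were WT (Prdm16 +/+), heterozygote (Prdm16 cGT/+) and null (Prdm16 cGT/cGT), with 3 embryos each, all from a strain kept on the FVB/NJ background. The cGT allele is a mutant form of Prdm16, a gene of a zinc finger transcriptional regulator, and was inherited from heterozygous parents, so that all tissues of an embryo carry it. The labels list no treatment. The genotypes were compared to ask what loss of Prdm16 does to the RNA of the duct.

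Libraries held from 24095322 to 30819118 counts, and a count of 3, taken as the floor, stood at 0.0969 to 0.126 CPM (TMM-normalized counts scaled to a common library size). Prdm16 RNA ran at 184 to 225 CPM in WT, 123 to 151 CPM in heterozygotes and 19.1 to 27.4 CPM in null embryos, so that no library went against its label. Epithelial markers were present in all libraries. The summed level of 12 mesenchyme markers was 693, 1238 and 146 CPM in WT embryos 1, 2 and 3, 73.5 to 133 CPM in heterozygotes and 76.4, 47.1 and 1636 CPM in null embryos. WT 1, WT 2 and Null 3 therefore stood apart from the other libraries in the level of these markers. Values without these 3 libraries are given for the members called and for those near a threshold. That fit holds WT 3 as its only WT embryo and takes the spread from the heterozygotes and the other null embryos, so its adjusted p assumes that WT 3 varies as they do and is given as a description. The summed level of 10 Kölliker's organ (KO) markers was 3994 to 4868 CPM in WT, 3846 to 4753 CPM in heterozygotes and 2327 to 2608 CPM in null embryos, and that of 10 prosensory markers was 581 to 629.5, 681 to 724 and 756 to 954 CPM. Roof markers (10 genes) summed to 8439.9 to 9888 CPM in WT, 10041 to 10577 CPM in heterozygotes and 11330 to 14589 CPM in null embryos. Most of that sum was the single gene Oc90, with means of 7820, 8941 and 11344 CPM. Between null and WT, 7 of the 10 roof genes were positive and 3 negative. The sum of 6 melanocyte markers was 62.3 to 144, 28.3 to 48.6 and 19.1 to 51.3 CPM. The sum of 6 endothelium markers was 84.7 and 69.2 CPM in WT 1 and WT 2, 48.7 CPM in Null 3 and 2.55 to 6.29 CPM in the rest, and that of 6 blood markers was 67.9 to 192 CPM in WT, 25.3 to 46.7 CPM in heterozygotes and 54.2 to 98.8 CPM in null embryos. In bulk RNA, fewer cells of a type and less RNA per cell cannot be told apart, and the part these markers have in the results was not tested.

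To see which members dominate the duct, levels were compared per kilobase of exon (CPM per kb), since longer transcripts collect more reads. Among WT embryos the inhibitor Sfrp1 was the highest of all members, at 386 CPM per kb, and held 86.9% of the summed level of the secreted inhibitors. Ctnnb1, the gene of beta-catenin, followed at 252 CPM per kb. Fzd7 was the leading frizzled at 75.6 CPM per kb, with 51.1% of the frizzled total, ahead of Fzd2 at 36.3 CPM per kb. Wnt7b led the ligands at 50.6 CPM per kb (39.5% of their total), ahead of Wnt5a, Wnt7a, Wnt4 and Wnt9a at 25.4, 20.8, 15.7 and 11.6 CPM per kb. Lrp5 stood above Lrp6, at 33.5 against 16.9 CPM per kb, and Rspo2 made up 90.6% of the R-spondin total. Lgr4 and Lgr5, at 14.8 and 13.6 CPM per kb, had overlapping values, and their order turned when length was taken from the longest transcript instead. Wnt3, Rspo1 and Notum were close to the floor, with 4 to 17, 0 to 11 and 0 to 34 counts per library, and Wnt6 ranged from 1 count in Het 1 to 52 counts in WT 1.

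**Figure D1:**
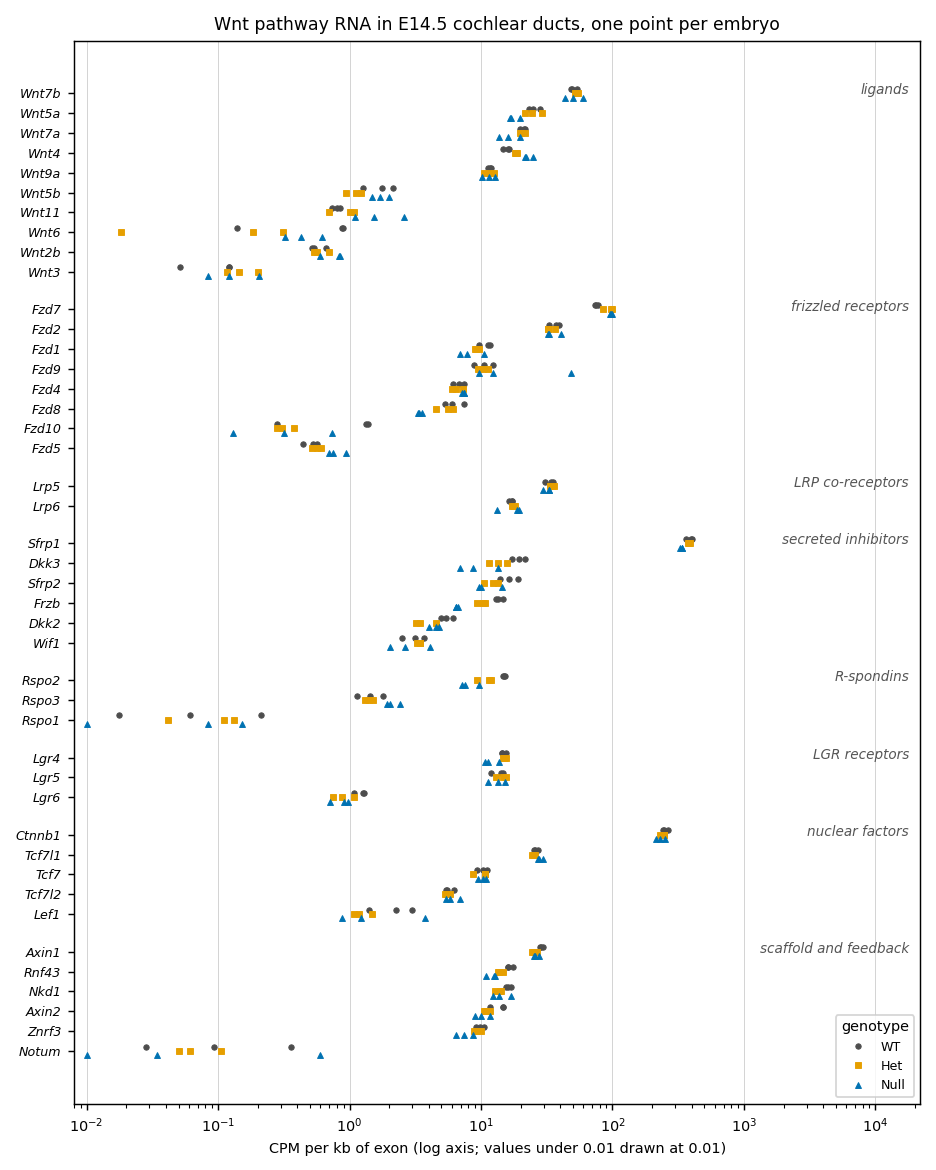
Level of each of the 43 members in each embryo, in CPM per kb of exon on a log axis, grouped by role. Circles, squares and triangles are WT, heterozygote and null embryos. Sfrp1 and Ctnnb1 are the highest members, Wnt3, Rspo1 and Notum have the lowest means in WT, 1 heterozygote is as low for Wnt6, and the 3 genotypes lie close together for most members.

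Between null and WT embryos, 40 members had enough counts to be tested, with Wnt3, Rspo1 and Notum left out by the filter on low counts. Frzb, Rspo2 and Fzd8 were lower and Wnt4 was higher in null embryos at an adjusted p under 0.05 with a log2 fold change beyond 0.5 in either direction. These 4 calls of 40 compare with 1.71% of the 17168 genes tested, of which 0.920% were higher and 0.786% lower. The members were chosen with earlier results of these data known. The shares given here and below therefore describe the members and are no independent comparison with all genes. With no adjustment, 5 members were higher and 13 lower at a p under 0.05, against 6.48% and 5.76% of all genes (12.2% in all). Of the 40, 12 had a positive and 28 a negative log2 fold change, where 51.9% and 48.1% of all genes were, and the median was -0.13 against 0.01 over all genes tested. Values in all 3 null embryos lay above all 3 WT embryos for 6 members and below them for 13, where 10.1% and 8.95% of all genes did so.

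**Figure D2:**
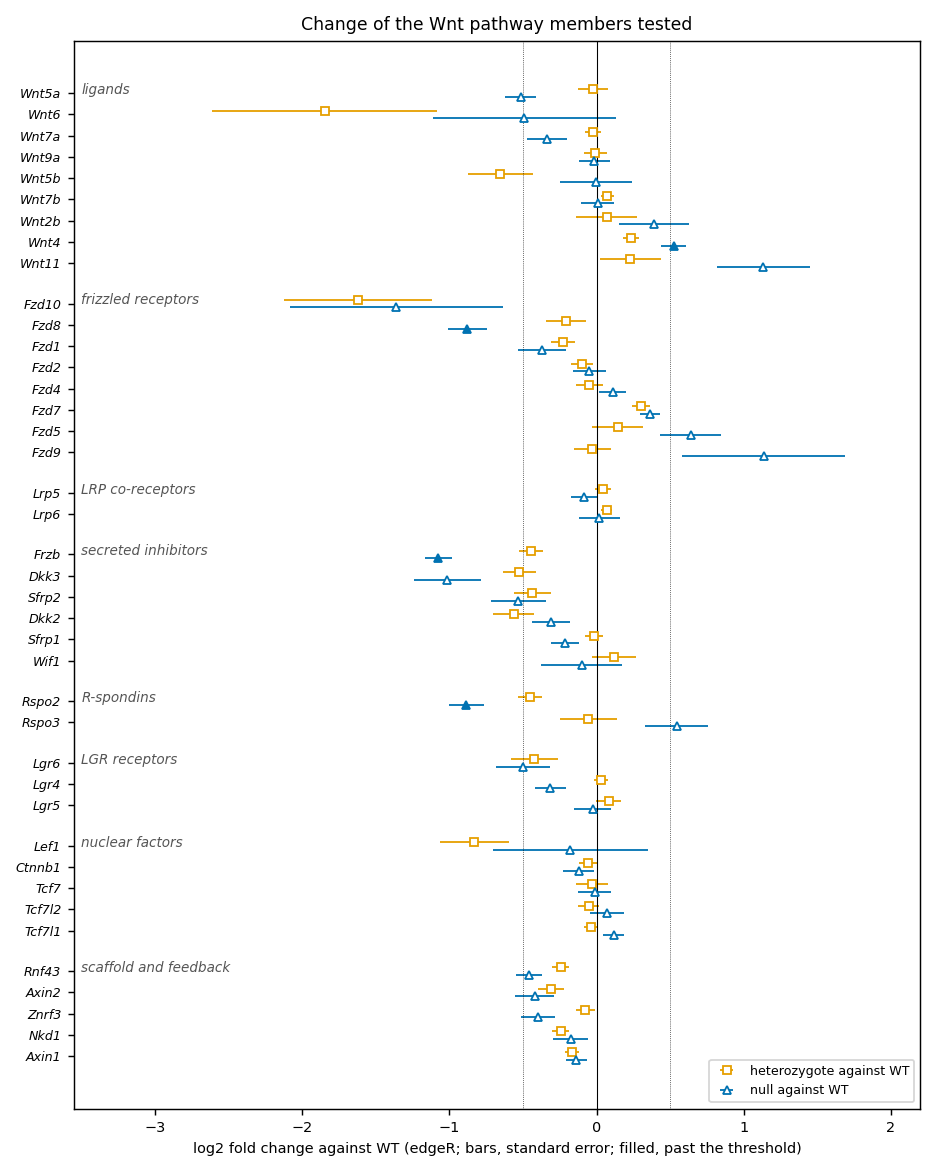
Log2 fold change against WT of the 40 members tested between null and WT, with heterozygotes against WT as squares and null embryos against WT as triangles; bars are the standard error of the edgeR fit and filled symbols are past both thresholds. Only the triangles of Frzb, Rspo2, Fzd8 and Wnt4 are filled, and the 6 secreted inhibitors and 5 scaffold and feedback genes drawn have null values left of 0.

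Frzb (ENSMUSG00000027004; mm10 chr2:80411970-80447625, minus strand), a secreted frizzled-related protein that binds Wnt ligands, fell furthest among the members called. In WT embryos it stood at 43.4, 42.1 and 47.8 CPM, with 34.4, 29.9 and 33.5 CPM in heterozygotes and 21.7, 20.9 and 20.9 CPM in null embryos. The 3 genotypes did not overlap, with heterozygotes between the others. Null embryos kept 47.7% of the WT level (log2 fold change -1.07, standard error 0.0942, edgeR adjusted p = 0.00283). Frzb passed both thresholds in all 15 alternative analyses, 1 of which, without the 3 libraries high in mesenchyme markers, compares with WT 3 alone and takes the spread from the other genotypes (-1.16, edgeR adjusted p = 0.00426).

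Rspo2 (ENSMUSG00000051920; mm10 chr15:43020794-43170826, minus strand), the main R-spondin of these ducts, was also lower. WT embryos held 77.4, 76.8 and 74.9 CPM, heterozygotes 59.2, 47.7 and 60.7 CPM and null embryos 36.8, 38.3 and 49.5 CPM. All WT values were above the rest, while the highest null embryo, Null 3, reached into the heterozygote range. The null level was 54.4% of WT (log2 fold change -0.88, standard error 0.119, edgeR adjusted p = 0.0125). The call was lost when any one WT embryo was left out (highest adjusted p 0.0851). Without the 3 mesenchyme-high libraries, against WT 3 alone, the value was -0.99 (adjusted p = 0.0197). Rspo3, which codes for another R-spondin, was at 5.56, 3.53 and 4.41 CPM in WT, 4.34, 4.65 and 4.02 CPM in heterozygotes and 6.32, 5.94 and 7.5 CPM in null embryos. Null values were the highest, but the difference did not pass the adjusted threshold (0.54, edgeR adjusted p = 0.357). An overlapping antisense gene, Gm48159, shares 11.6% of the 50-base stretches of Rspo3. The share of Rspo2 in the summed R-spondin level per kb was 90.6% in WT, 87.9% in heterozygotes and 78.6% in null embryos.

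Among the frizzled receptors, Fzd8 (ENSMUSG00000036904) was the only one past both thresholds. Its values were 44.2, 35.8 and 32.0 CPM in WT, 33.5, 26.9 and 36.6 CPM in heterozygotes and 20.1, 19.7 and 21.2 CPM in null embryos. Null values were below all others, whereas WT and heterozygote values overlapped. The level in null embryos was 54.6% of WT (log2 fold change -0.88, standard error 0.132, edgeR adjusted p = 0.0192). Without the 3 mesenchyme-high libraries the value was -0.68 (adjusted p = 0.151), and the call was also lost without WT 1, WT 2, Null 1 or Null 2 (highest adjusted p 0.111).

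Fzd7 (ENSMUSG00000041075; mm10 chr1:59482424-59486955, plus strand), the most abundant frizzled, was higher at the adjusted p threshold but not at the fold threshold. It stood at 353, 334 and 341 CPM in WT, 381, 439.6 and 446 CPM in heterozygotes and 447, 445 and 434 CPM in null embryos. All WT values were the lowest, and heterozygotes overlapped null embryos. Null embryos were at 129% of WT (log2 fold change 0.36, standard error 0.0679, edgeR adjusted p = 0.0457). When embryos were removed singly, 1 fit of 6 kept the adjusted p under 0.05 (highest 0.272). Without the mesenchyme-high libraries, against WT 3 alone, the log2 fold change was 0.39. Heterozygotes, against WT with all embryos kept, were at 123% (0.30, edgeR adjusted p = 0.0715). Its promoter sequence, from RefSeq on GRCm38.p6 (the build of mm10), is shown since this is the most abundant frizzled; the 250 bases upstream of its RefSeq start, chr1:59481897-59482146 on the plus strand, hold no match to the TCF and LEF core described under Wnt11.
Fzd7: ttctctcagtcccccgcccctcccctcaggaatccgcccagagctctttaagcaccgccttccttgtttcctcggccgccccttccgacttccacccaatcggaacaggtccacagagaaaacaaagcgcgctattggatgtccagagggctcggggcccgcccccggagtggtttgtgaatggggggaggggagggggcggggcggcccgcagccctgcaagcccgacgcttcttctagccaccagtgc

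Fzd5 was a low receptor gene, at 3.89, 3.65 and 3.05 CPM in WT, 4.18, 3.61 and 3.91 CPM in heterozygotes and 5.20, 4.81 and 6.54 CPM in null embryos. Null values were above the others without passing the adjusted threshold (0.64, edgeR adjusted p = 0.242). An overlapping gene on the opposite strand, Gm38058, shares 16.4% of the 50-base stretches of Fzd5. Fzd9, named here after its values were seen, ran at 20.3 to 28.5 CPM in 8 embryos and at 110.3 CPM in Null 3, the library with the highest mesenchyme marker sum. Fzd1, Fzd2, Fzd4 and Fzd10 had overlapping null and WT values, with log2 fold changes of -0.37, -0.05, 0.11 and -1.36. The co-receptor gene Lrp5 was at 300.4, 332 and 345 CPM in WT, 326, 335 and 349 CPM in heterozygotes and 320.1, 287 and 319 CPM in null embryos. Its null and WT values overlapped (-0.09, 95% interval -0.29 to 0.12), as did those of Lrp6 (0.02, -0.30 to 0.34).

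Wnt4 (ENSMUSG00000036856; mm10 chr4:137277489-137299726, plus strand), a ligand gene used in many developing epithelia, was the member called higher. Levels were 67.1, 61.7 and 69 CPM in WT, 76.6, 77.6 and 78.7 CPM in heterozygotes and 89.8, 104 and 92.2 CPM in null embryos. The genotypes did not overlap and heterozygotes lay between the others. The null level was 144% of WT (log2 fold change 0.53, standard error 0.0848, edgeR adjusted p = 0.0251). Its fold change is close to the threshold, and the call was lost in 5 of 6 fits with 1 embryo removed (every fit but that without Null 3) and without the mesenchyme-high libraries (0.49, adjusted p = 0.157). The 104 upstream bases that lie before both the RefSeq and the GENCODE start, chr4:137277385-137277488 on the plus strand of GRCm38.p6, are shown as the promoter of the ligand called, and 4.33% of the 50-base stretches of its exons also occur in other genes.
Wnt4: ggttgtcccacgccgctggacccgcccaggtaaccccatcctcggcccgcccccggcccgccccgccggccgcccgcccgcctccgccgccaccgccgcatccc

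The other ligands tested did not pass both thresholds. Wnt2b, Wnt5b, Wnt6 and Wnt9a overlapped between null and WT embryos, at log2 fold changes of 0.39, -0.00, -0.49 and -0.01. Wnt5a, a ligand of the non-canonical branch, was at 221, 193 and 182 CPM in WT, 227, 169.7 and 189.7 CPM in heterozygotes and 156, 133 and 130.1 CPM in null embryos. Null values were below all others, and the difference did not pass the adjusted threshold (-0.52, standard error 0.103, edgeR adjusted p = 0.0566). Without the mesenchyme-high libraries it was -0.34 (adjusted p = 0.542). An antisense gene, Gm2670, overlaps Wnt5a, and the strand setting of the counting is not given in the sources used here. Wnt7a held 63.0, 67.3 and 68.0 CPM in WT, 68.6, 62.9 and 63.8 CPM in heterozygotes and 51.2, 62.9 and 43.4 CPM in null embryos, with null values below WT (-0.34, edgeR adjusted p = 0.363). Wnt7b, the leading ligand, was at 239, 243 and 261 CPM in WT, 261, 267 and 254 CPM in heterozygotes and 244, 291 and 215 CPM in null embryos. Its genotypes overlapped, with a log2 fold change of 0.01 and a 95% interval of -0.26 to 0.27.

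Wnt11 was a low ligand gene with a large but variable difference. Values were 3.30, 3.02 and 3.53 CPM in WT, 4.18, 4.51 and 2.89 CPM in heterozygotes and 4.58, 6.33 and 10.8 CPM in null embryos. Null values were the highest, led by Null 3 (221% of WT, standard error of the log2 fold change 0.313, edgeR adjusted p = 0.165). Without the mesenchyme-high libraries, against WT 3 alone, the value was 0.64. An overlapping pseudogene on the opposite strand, Gm8398, shares 7.46% of the 50-base stretches of Wnt11. The 250 bases before each RefSeq start were searched on both strands for CTTTGAA and CTTTGAT, plain-letter forms of the TCF and LEF core. A match was found in 2 of the 29 members searched, Wnt11 and Wnt5b. This is 6.9% of members, beside 8.63% of all 27025 genes with a sequence. The member search left out a chromosome that the search over all genes kept, so the 2 shares rest on unlike sets. The Wnt11 window, chr7:98834862-98835111 on the plus strand of GRCm38.p6, is printed with the match in capitals, 51 bases before the start.
Wnt11: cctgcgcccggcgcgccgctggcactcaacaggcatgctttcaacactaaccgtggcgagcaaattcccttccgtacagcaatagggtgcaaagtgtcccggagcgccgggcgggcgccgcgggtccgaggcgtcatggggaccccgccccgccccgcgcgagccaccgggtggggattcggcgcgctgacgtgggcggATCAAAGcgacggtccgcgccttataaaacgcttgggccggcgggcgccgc

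**Figure D3:**
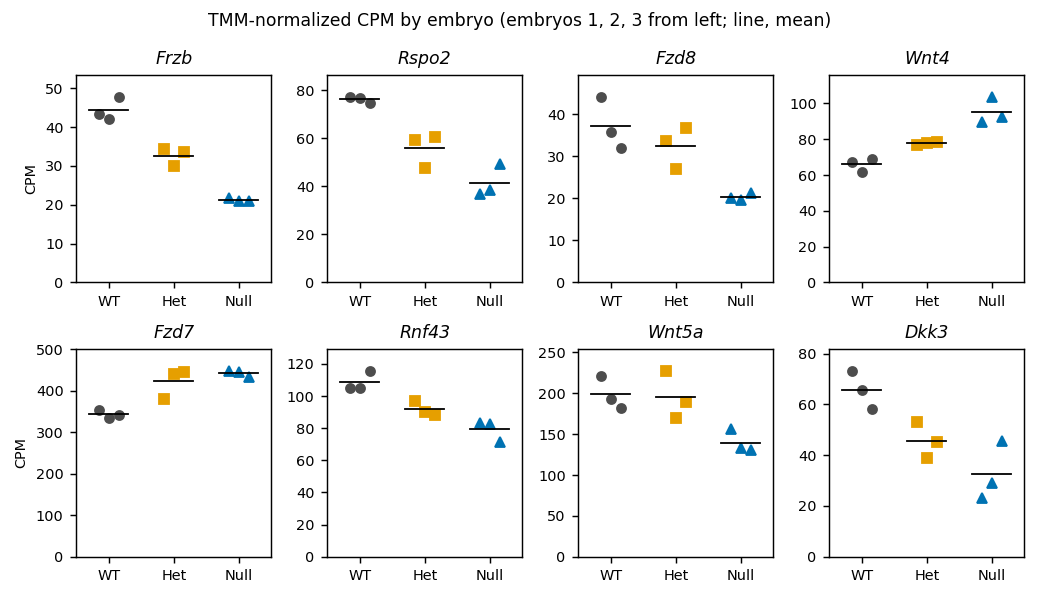
CPM of 8 members in each embryo, with the mean of each genotype as a line. Frzb and Wnt4 form 3 separate steps from WT through heterozygote to null, Rspo2, Fzd8, Wnt5a and Dkk3 have null values below WT, Rnf43 forms 3 steps as well, and Fzd7 is higher in both mutant genotypes.

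The 6 members listed as secreted inhibitors had negative log2 fold changes in null embryos, where 48.1% of all genes did. Their median was -0.42 against 0.01 over all genes. Frzb was the only one called, where 0.786% of all genes were called lower. Values of other inhibitors of the pathway were mostly positive. Of 9 further secreted or membrane inhibitors tested, 8 were positive and 1 negative, where 51.9% of all genes were positive. Their median was 0.35, and Shisa2, described at the end, was the only one called (0.920% of all genes were called higher). The 9 include Sfrp5 (0.97, edgeR adjusted p = 0.446) and Dkk1 (0.66, adjusted p = 0.462), named after their values were seen as relatives of Sfrp1 and Dkk2. Both were low, with WT and null means of 0.65 and 1.29 CPM for Sfrp5 and 0.77 and 1.22 CPM for Dkk1. Dkk3, a member of the dickkopf family, was at 73.1, 65.7 and 58.2 CPM in WT, 53.2, 38.9 and 45.1 CPM in heterozygotes and 23.3, 29.2 and 45.5 CPM in null embryos. Null 3 overlapped the heterozygotes, and all null values were below WT (-1.01, standard error 0.228, edgeR adjusted p = 0.0862). Without the mesenchyme-high libraries, with WT 3 as the only WT embryo, Dkk3 was at -1.14 (adjusted p = 0.0250). Dkk2 was at 22.8, 18.5 and 20.2 CPM in WT, 16.9, 12.8 and 12 CPM in heterozygotes and 17.0, 17.9 and 14.9 CPM in null embryos. Both mutant genotypes were below WT, the heterozygotes more so (-0.31, edgeR adjusted p = 0.386 in null embryos, and -0.56, adjusted p = 0.112 in heterozygotes), and the null value was -0.20 without the mesenchyme-high libraries. Sfrp1, the most abundant member, stood at 1596, 1716 and 1756 CPM in WT, 1669.5, 1704 and 1642 CPM in heterozygotes and 1466, 1438 and 1479.9 CPM in null embryos. Its null values were the lowest (86.5% of WT), with a log2 fold change of -0.21 and an edgeR adjusted p of 0.429. Sfrp2 and Wif1 overlapped between null and WT embryos, at -0.53 and -0.10, and an antisense gene, Gm26771, shares 12% of the 50-base stretches of Sfrp2.

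Genes that carry or feed back on the signal showed small differences, none past both thresholds. Rnf43, a ligase that removes frizzleds from the surface, was at 105, 105 and 116 CPM in WT, 97.2, 89.8 and 88.3 CPM in heterozygotes and 83.4, 82.9 and 71.3 CPM in null embryos. The genotypes did not overlap, and null embryos missed both thresholds narrowly (-0.46, standard error 0.0887, edgeR adjusted p = 0.0505). Without the mesenchyme-high libraries, against WT 3 alone, Rnf43 was at -0.47. Znrf3, its relative, was at 71.7, 77.7 and 83.1 CPM in WT, 78.6, 72 and 70.4 CPM in heterozygotes and 68.0, 51.1 and 58.2 CPM in null embryos. Null values were below the others, with a log2 fold change of -0.40 and an edgeR adjusted p of 0.204. The scaffold gene Axin1 held 107, 109 and 113 CPM in WT, 93.6, 97.6 and 102 CPM in heterozygotes and 98.0, 106 and 96.1 CPM in null embryos, all mutant values being below WT (-0.14, adjusted p = 0.497). Axin2 and Nkd1, common targets of beta-catenin, overlapped between null and WT embryos, at -0.42 (edgeR adjusted p = 0.221) and -0.18 (adjusted p = 0.620), and an antisense gene, Gm11670, overlaps Axin2.

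Ctnnb1 was at 1264, 1383 and 1274 CPM in WT, 1203, 1282 and 1283 CPM in heterozygotes and 1197, 1107 and 1313 CPM in null embryos. Its genotypes overlapped (-0.12, 95% interval -0.37 to 0.12). Ulk4, an overlapping gene on the opposite strand, shares 12.3% of the 50-base stretches of Ctnnb1. The TCF genes Tcf7, Tcf7l1 and Tcf7l2 had log2 fold changes of -0.01, 0.12 and 0.07, with null values above WT for Tcf7l1 alone, and Lef1 one of -0.18 with a standard error of 0.527. Of the R-spondin receptors, Lgr4 was at 84.9, 84.3 and 91.4 CPM in WT, 86.6, 88.0 and 91.8 CPM in heterozygotes and 81.3, 62.7 and 66.5 CPM in null embryos. Null values were the lowest without passing the adjusted threshold (-0.31, edgeR adjusted p = 0.277). Lgr6 was a low gene, at 7.37, 8.71 and 8.85 CPM in WT, 6.02, 7.43 and 5.16 CPM in heterozygotes and 6.23, 4.84 and 6.62 CPM in null embryos (-0.50, adjusted p = 0.312), with null values below WT. Lgr5, a marker of progenitor cells in many epithelia, overlapped across genotypes, with a log2 fold change of -0.02 and a 95% interval of -0.32 to 0.27.

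Heterozygotes were compared with the same WT embryos, to ask whether a single mutant allele changes these genes. No member of the 41 tested was called by edgeR, against 0.151% of all genes, and limma-voom called 0 and DESeq2 called 3 (Dkk2, Dkk3 and Fzd10, all lower), where DESeq2 called 318 of all 32010 genes. At an unadjusted p under 0.05, 2 members were higher and 15 lower, beside 5.80% and 7.33% of the 17269 genes tested (13.1% in all). All 3 heterozygote values lay above WT for 3 members and below WT for 9, where 8.97% and 8.99% of all genes did so. The smallest edgeR adjusted p was 0.0631, for Frzb (-0.45, standard error 0.0808) and Rspo2 (-0.45, standard error 0.0826). Heterozygotes stood at 73.5% and 73.1% of WT for these genes, and none of their values overlapped WT. Wnt4 and Rnf43 were also apart from WT, at 0.23 and -0.24 (adjusted p = 0.0881 and 0.0912). Without the mesenchyme-high libraries, against WT 3 alone, Frzb was at -0.55 (adjusted p = 0.481), Rspo2 at -0.42, Wnt4 at 0.17 and Rnf43 at -0.33 (adjusted p of 0.972 to 1 for these 3), and Dkk3 was at -0.35 where all libraries gave -0.52. Between null embryos and heterozygotes, 1 of 41 members was called, Frzb (-0.63, standard error 0.0983, edgeR adjusted p = 0.0370), against 0.615% of the 17067 genes tested. At an unadjusted p under 0.05, 5 members were higher and 8 lower in null embryos (6.14% and 5.25% of all genes, 11.4% in all), and 7 lay above and 9 below all heterozygotes (9.06% and 9.09%). When each embryo was removed in turn the call held only without Null 3 (highest adjusted p 0.291). Fzd8 was at -0.67 (adjusted p = 0.0845) and Fzd7 at 0.07 (adjusted p = 0.770) between null embryos and heterozygotes.

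Several members had their highest values in the same libraries of different genotypes. WT 1, WT 2 and Null 3, the libraries high in mesenchyme markers, were above the other 6 libraries for 8 of the 41 members kept over all libraries (Wnt6, Fzd1, Fzd2, Fzd10, Sfrp2, Lef1, Axin2 and Nkd1), where 4.53% of all genes were. The gap was very small for Axin2 (lowest of these libraries 64.88 CPM, highest of the other 6 64.74 CPM) and Fzd2 (135.1 against 134.8 CPM). WT 1, WT 2 and Null 3 were below the rest for Wnt7b alone, beside 1.97% of all genes. Lef1, the LEF factor gene, was at 19.7, 26.0 and 33.2 CPM in those libraries and at 7.69 to 12.9 CPM in the others; 13.7% of its 50-base stretches also occur in other genes, mostly the antisense gene Gm43352. Fzd10 was at 4.48, 4.35 and 2.39 CPM against 0.420 to 1.23 CPM. The heterozygotes hold no library of this kind. The mesenchyme marker sum differs in the same direction between WT and heterozygotes, with 12 of 12 markers negative, as do Lef1 (-0.83, edgeR adjusted p = 0.153) and Fzd10 (-1.62, adjusted p = 0.192), and the part of mesenchyme in these differences was not tested.

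**Figure D4:**
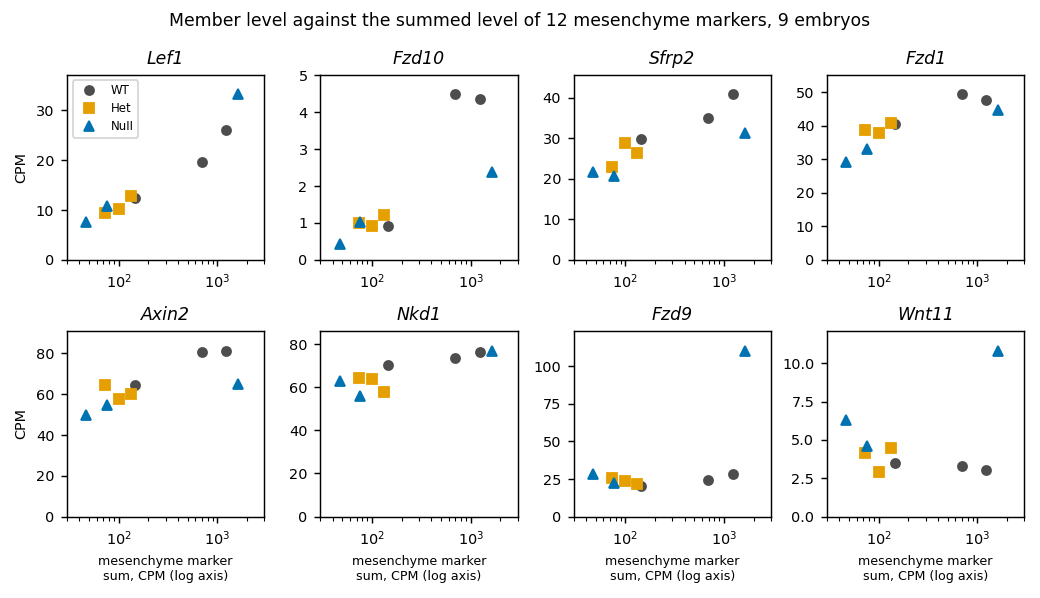
CPM of 8 members in each embryo against the summed CPM of 12 mesenchyme markers on a log axis. WT 1, WT 2 and Null 3, at the right of each panel, are the highest for Lef1, Fzd10, Sfrp2, Fzd1, Axin2 and Nkd1, while for Fzd9 and Wnt11 the highest value is that of Null 3 alone.

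A wider list of 64 other Wnt pathway genes, from ligand secretion to nuclear cofactors, put these values in context. Of its 50 genes tested between null and WT, 1 was called, a share near the 1.71% of all genes. This was Shisa2 (ENSMUSG00000044461; mm10 chr14:59625308-59631660), whose protein holds frizzled receptors back in the endoplasmic reticulum. Shisa2 was at 121, 123 and 125 CPM in WT, 151, 179.9 and 167 CPM in heterozygotes and 221, 212 and 234 CPM in null embryos. The genotypes did not overlap, and heterozygotes were intermediate. Null embryos were at 181% of WT (log2 fold change 0.85, standard error 0.0698, edgeR adjusted p = 0.00214), past both thresholds in all 15 alternatives, the fit with WT 3 alone included. Heterozygotes were at 135% (0.43, edgeR adjusted p = 0.0363), under the fold threshold. This p stayed under 0.05 in 2 of 6 fits with an embryo removed (highest 0.215). Without the mesenchyme-high libraries, against WT 3 alone, the heterozygote value was 0.42. In this wider list 24 genes were positive and 26 negative between null and WT, with 4 higher and 1 lower at an unadjusted p under 0.05 (6.48% and 5.76% of all genes). None of its 50 genes tested passed both edgeR thresholds in the other comparisons, where 3 higher and 4 lower (heterozygote against WT; 5.80% and 7.33% of all genes) and 4 higher and 1 lower (null against heterozygote; 6.14% and 5.25%) had an unadjusted p under 0.05. DESeq2 called 1 of them (Dact1, lower) and 0 of them in these comparisons, and limma-voom 0 in both.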

How the data were processed

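Cochlear ducts of 9 embryos (3 per genotype) were profiled by single-end mRNA sequencing. The authors trimmed reads with cutadapt 1.13, aligned them to mm10 with STAR and deposited raw counts per Ensembl gene made with HTSeq 0.6.1p1, per the submitters' processing notes; the strand setting and annotation release are not given in the sources used here. From these counts, genotypes were tested in pairs, on 6 libraries each, with edgeR 4.0.16 in R 4.3.3 (TMM, filterByExpr with a minimum count of 10, quasi-likelihood test, Benjamini-Hochberg adjustment over all genes tested). Calls needed an adjusted p under 0.05 with a log2 fold change beyond 0.5 in either direction. CPM values were TMM-normalized over 9 libraries, and lengths, positions and overlaps came from GENCODE M21, which holds 54165 of the 54232 genes. Promoters came from RefSeq (GRCm38.p6).

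The members and lists were chosen with earlier results of these data known. Values in every library are given for members called in any comparison, for those with an unadjusted p under 0.05 and separate null and WT values, and for the highest of each role; other members that are named with values in single libraries were chosen after their values were seen. Alternatives were DESeq2 1.42.0, limma-voom (limma 3.58.1), other scalings, filters and thresholds, 1 fit of 9 libraries, the replicate number as a block, leaving out each embryo and, chosen after the data were seen, leaving out the 3 libraries high in mesenchyme markers. The scripts were tested on simulated data. Totals of 24095322 to 30819118 counts and 3 embryos per genotype set the precision; the floor covers counting error only.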

Additional observations from a re-analysis of the deposited data

How the results depend on the processing

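Precision was limited by 3 embryos per genotype, and Wnt3, Rspo1 and Notum rest on few counts. The embryos are littermates of unstated litters, and the counting could not be checked for strand, which matters for genes that overlap an antisense gene.

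Between null and WT embryos, Frzb was called in all alternatives. The number of members called was 4; it was 7 with DESeq2 (adding Dkk3, Wnt5a and Wnt11), 6 with no filter on low counts and 6 with all 9 libraries in one fit (both adding Dkk3 and Wnt5a), 6 at an adjusted p under 0.1 (adding the same 2; 434 of all genes), 3 without the mesenchyme-high libraries (Frzb, Rspo2 and Dkk3, against WT 3 alone), 2 with the replicate number as a block (Frzb and Rspo2) and 1 to 6 when each embryo was left out in turn, with Frzb as the single call without WT 1 or without WT 2, 2 calls without WT 3, Null 1 or Null 2, and 6 without Null 3. Of the other Wnt pathway genes, 1 to 2 were called when an embryo was left out, and 2 without the 3 libraries high in mesenchyme markers (Shisa2 and Dact1). For heterozygotes against WT, the number of members called was 0; it was 3 with DESeq2 (318 of all genes), 5 with no filter on low counts (Dkk2, Dkk3, Fzd10, Lef1 and Wnt6; 684 of all genes), 3 with the replicate block (Dkk2, Dkk3 and Lef1; 197 of all genes), 1 at an adjusted p under 0.1 (Dkk3; 211 of all genes) and 0 to 5 when each embryo was left out, the 5 being without WT 3 (505 of all genes, against 26 with every embryo). Of the other pathway genes, 1 was called with DESeq2, 5 with no filter, 1 with the block, 1 with no fold threshold (Shisa2) and 0 to 2 when each embryo was left out. Between null embryos and heterozygotes, the number of members called was 1; it was 2 with DESeq2 (357 of all genes, against 105 by edgeR), 2 with no filter (366 of all genes), 2 at an adjusted p under 0.1 (Frzb and Fzd8; 167 of all genes), 2 without the mesenchyme-high libraries (Frzb and Dkk3; 201 of all genes), 0 with the block and 0 to 2 when each embryo was left out. Of the other pathway genes, 1 was called without the mesenchyme-high libraries (Dact1) and 0 to 1 when each embryo was left out. Over all genes, 293 were called between null and WT, against 618 with DESeq2, 476 with no filter, 468 with all 9 libraries in one fit, 208 without the mesenchyme-high libraries, 133 with the block and 68 to 446 when each embryo was left out. The cause of these differences was not tested.

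The deviations of same-numbered embryos from their genotype means correlated between -0.284 and 0.202. For differently numbered embryos of different genotypes the range was -0.327 to 0.349. Whether the replicate numbers mark shared litters cannot be told from these values.

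Level per kb of the leading members in WT depended on the length used. With the longest transcript it was 72.9 for Wnt7b, 36.7 for Lrp5, 17.2 for Lgr4, 22.9 for Rspo2 and 361 CPM per kb for Ctnnb1.

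Differences near 0 changed sign. For null against WT, Wnt7b was at -0.00282 with limma-voom, -0.00286 with the replicate block and -0.11 to 0.11 when embryos were left out. For heterozygotes against WT, leaving out embryos gave -0.15 to 0.066 for Wnt5a, -0.060 to 0.00034 for Wnt7a, -0.010 to 0.090 for Lrp5, -0.055 to 0.014 for Sfrp1 and -0.20 to 0.12 for Rspo3, and leaving out the mesenchyme-high libraries gave 0.10 for Wnt5a, -0.0031 for Wnt7b, 0.017 for Fzd8, -0.036 for Lrp5 and -0.041 for Lgr4. For null embryos against heterozygotes, leaving out embryos gave -0.18 to 0.036 for Wnt7b, -0.0030 to 0.11 for Fzd7, -0.19 to 0.077 for Lgr6, -0.12 to 0.0018 for Ctnnb1 and -0.0075 to 0.066 for Axin1, and Wnt7b was at 0.041 without the mesenchyme-high libraries. For the 21 members with values in every library and for Shisa2, the other settings kept the direction; the remaining members were not rerun for direction.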
